A study of Mus musculus with 8 samples.

Results

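The 10 genes described here, Fos, Fosb, Jun, Junb, Egr1, Nr4a1, Nr4a3, Atf3, Btg2 and Ier2, are immediate early genes, and they were followed through single-nucleus RNA libraries of mouse gastrocnemius, the large calf muscle. They were taken by name from 21207 gene symbols found in every library. Their counts were read per library and per class of nucleus, so that signal in myonuclei, the nuclei of the muscle fibres, could be set beside signal in the other cell types. All animals were wild-type C57BL/6 mice. The Old group was 20 months old and the Young group 3 months old. The Running group came from mice aged 11 months before training, which then ran on a treadmill for 2 months at 9 m/min. Sessions lasted 30 min, with 2 to 3 days of rest after each session. The Sedentary group was the untrained counterpart in the same model. For neither group is the age at collection stated for these libraries. The time from the last run to tissue collection is not given in the sources used here. Each group had 2 libraries: replicate 1 was made with 10x Genomics droplets and replicate 2 with another droplet system, called the second set. Fresh muscle was frozen in liquid nitrogen before nuclei were isolated. Labels do not show that libraries came from separate animals, so p-values measure only the spread between libraries.

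Immediate early genes are transcribed within minutes of a stimulus from factors already present in the cell, without new protein synthesis. Muscle contraction switches on many of them through calcium, cAMP and MAP kinase signalling, and so does the handling or dissociation of a tissue, which acts on every cell type. Most of them encode transcription factors that in turn switch on later genes, and their transcripts are short-lived.

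In GRCm38 coordinates of GENCODE vM21, the AP-1 genes lay at chr12:85473890-85477273 (+) for Fos, chr7:19302696-19310051 (-) for Fosb, chr4:95049034-95052222 (-) for Jun and chr8:84974484-84978718 (-) for Junb. Atf3 lay at chr1:191170296-191218039 (-), Nr4a1 at chr15:101254269-101274795 (+), Nr4a3 at chr4:48045153-48086447 (+), Btg2 at chr1:134075170-134079120 (-) and Ier2 at chr8:84661331-84662852 (-). RefSeq (GRCm38.p6) gave a promoter window of 250 bases before the start for 8 of the 10 genes. The 5-base form of the cAMP response element, TGACG on either strand, was in 7 of the 8 windows, all but that of Jun, against 17.8% of 32851 promoter windows of that length. The windows of Fos, Nr4a1, Nr4a3 and Btg2 are shown because each holds more than 1 copy. Capitals mark TGACG, or CGTCA where it is on the other strand.
Fos, chr12:85473640-85473889 (+): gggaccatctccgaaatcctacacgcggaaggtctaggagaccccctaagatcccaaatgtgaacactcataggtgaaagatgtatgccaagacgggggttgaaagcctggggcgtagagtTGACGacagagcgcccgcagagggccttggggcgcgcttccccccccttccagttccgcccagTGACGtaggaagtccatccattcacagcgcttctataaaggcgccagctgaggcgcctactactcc
Nr4a1, chr15:101266596-101266845 (+): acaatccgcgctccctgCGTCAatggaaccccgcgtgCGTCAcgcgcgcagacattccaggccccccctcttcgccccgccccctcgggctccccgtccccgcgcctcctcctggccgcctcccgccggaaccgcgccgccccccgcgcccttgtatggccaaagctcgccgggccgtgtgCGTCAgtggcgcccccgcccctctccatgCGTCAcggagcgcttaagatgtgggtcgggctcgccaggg
Nr4a3, chr4:48045055-48045304 (+): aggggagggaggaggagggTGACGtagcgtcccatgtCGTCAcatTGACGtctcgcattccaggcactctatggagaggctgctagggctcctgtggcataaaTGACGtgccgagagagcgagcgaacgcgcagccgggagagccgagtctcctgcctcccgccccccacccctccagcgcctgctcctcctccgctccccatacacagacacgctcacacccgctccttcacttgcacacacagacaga
Btg2, chr1:134079156-134079405 (-): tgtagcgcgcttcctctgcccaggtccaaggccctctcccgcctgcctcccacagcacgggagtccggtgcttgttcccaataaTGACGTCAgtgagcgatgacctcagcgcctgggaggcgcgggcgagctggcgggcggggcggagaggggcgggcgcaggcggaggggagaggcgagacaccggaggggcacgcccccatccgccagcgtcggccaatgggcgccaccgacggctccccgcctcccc

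In Btg2 the copies overlap inside the full palindrome TGACGTCA, which no other member window held and which 1.55% of all windows held. The EGR site GCGNGGGCG was in the windows of Fosb, Nr4a1 and Btg2, against 4.70% of windows, and the MEF2 site was in those of Jun and Atf3, against 2.92%. The heat shock element core GAANNTTC was in the Jun window (6.69% of windows) and TATAAA in the Fos window (12.4%). The AP-1 site TGANTCA (6.75%), the CArG box (1.47%) and the NR4A response element AAAGGTCA (1.34%) were in none of the 8 member windows. Egr1 and Ier2 had no window and were not searched. Both strands were searched, and a match is a run of letters, not a measured binding site.

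The files held raw UMI counts, and each UMI stands for 1 captured RNA molecule. After the study's filters, 64803 of 65280 nuclei were retained. The 10x libraries held 10587 to 12991 nuclei each, with 23327640 to 44389777 UMIs and a median of 1664 to 3001 per nucleus, and the second set held 4228 to 4772 nuclei each, with 4765224 to 9088163 UMIs and a median of 909 to 1689.5. Clusters made without the 10 genes and named from marker lists gave 41708 myonuclei (all class names mean likeness by markers), 17127 nuclei of other named classes and 5968 unnamed nuclei. Old replicate 2 stood apart, with 70.9% of its nuclei unnamed against 0.968 to 11.4% in the other 7 libraries. Pairs of 10x libraries shared 30 to 46 barcodes. The second set names its nuclei by serial number, so its shared names could not be read as shared barcodes.

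Levels are given as CPM, that is, UMIs scaled to an equal total in every library, with replicate 1 before replicate 2. Fos, the inducible partner of Jun in the AP-1 factor, was at 12.3 and 4.52 in Young, 4.58 and 17.0 in Old, 8.17 and 4.62 in Sedentary and 7.65 and 10.9 in Running. Fosb, a Fos relative, was at 2.07 and 0.110 in Young, 0.819 and 2.59 in Old, 1.51 and 1.05 in Sedentary and 1.26 and 0.410 in Running, resting on 1 to 82 UMIs per library. Neither gene kept 1 order of the groups in both sets, since Young was the highest in the 10x set and Old in the second set.

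Jun, the AP-1 partner of the Fos proteins, was at 19.4 and 97.7 in Young, 56.9 and 75.6 in Old, 25.2 and 49.97 in Sedentary and 40.8 and 60.0 in Running. In the 10x set Old was the highest and Young the lowest of the 4 libraries, while in the second set Young was the highest. Junb, which can restrain Jun, was at 9.16 and 3.09 in Young, 16.7 and 9.58 in Old, 8.26 and 3.99 in Sedentary and 7.95 and 6.56 in Running, and Old was the highest in both sets. Atf3, a stress-induced factor of the ATF/CREB family, was at 7.54 and 3.86 in Young, 9.06 and 15.0 in Old, 4.47 and 1.47 in Sedentary and 2.78 and 2.60 in Running. Old was again the highest in both sets. In the 10x set Old falls below Young when 1 nucleus of Old, described below, is left out alone. With the nucleus of most Atf3 UMIs left out of both, Old was at 6.93 and Young at 5.98.

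Egr1, a zinc-finger factor induced by growth signals, was at 19.5 and 1.88 in Young, 17.0 and 6.38 in Old, 5.08 and 2.73 in Sedentary and 6.89 and 4.65 in Running, and the 10x values of Old and Young exceeded all others. Ier2, a small nuclear protein of the early response, was at 4.82 and 2.32 in Young, 9.87 and 4.19 in Old, 2.28 and 3.15 in Sedentary and 4.85 and 3.14 in Running, with Old replicate 1 above all others. Btg2, an antiproliferative cofactor of mRNA deadenylation, was at 10.3 and 7.06 in Young, 12.0 and 8.98 in Old, 5.85 and 6.30 in Sedentary and 11.2 and 12.8 in Running, and Sedentary was the lowest in both sets.

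Nr4a1, an orphan nuclear receptor that controls glucose and lipid genes in muscle, was at 305 and 159.6 in Young, 222 and 144 in Old, 197 and 369 in Sedentary and 282 and 578 in Running. The highest library was Running replicate 2 and the lowest Old replicate 2, and most pairs of groups overlapped. Nr4a1 held 45.3 to 81.9% of all UMIs of the 10 genes in a library. Per kilobase of exon it was the highest of the 10 in all 8 libraries, at 40.5 to 165 CPM per kilobase against 6.09 to 30.6 for Jun. Whether intronic reads were counted is not given in the sources used here, and per kilobase of the whole gene Nr4a1 was at 6.93 to 28.1 and Jun at 6.09 to 30.6, in an order that varied between libraries. Nr4a3, a receptor of the same family, was at 7.39 and 5.96 in Young, 16.1 and 35.3 in Old, 8.39 and 39.0 in Sedentary and 5.67 and 26.8 in Running, with Young the lowest in the second set and Running the lowest in the 10x set.

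**Figure D1:**
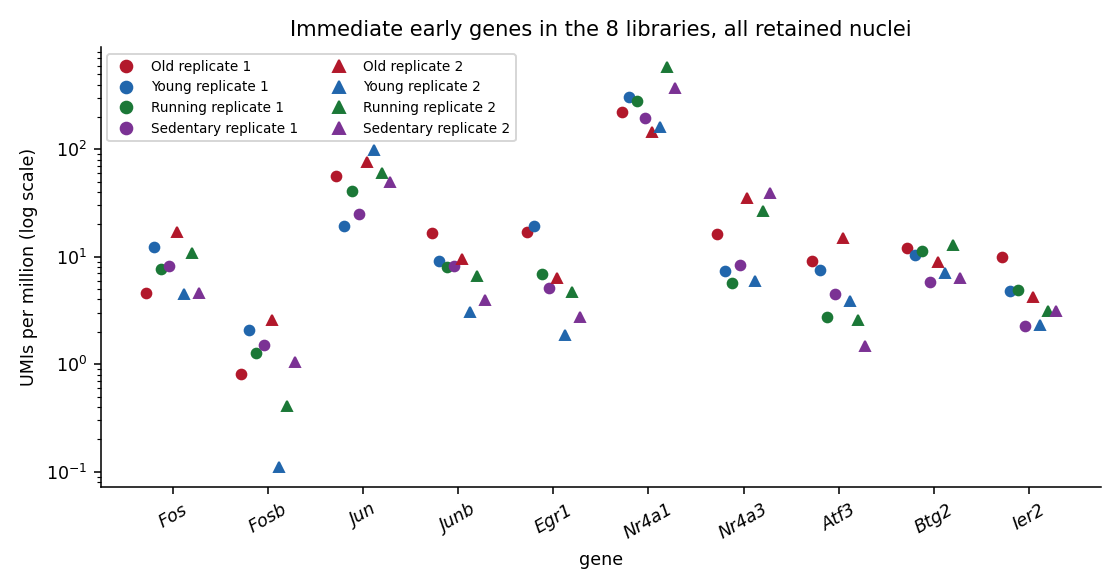
Level of each of the 10 genes (CPM, log axis) in the 8 libraries, with points marking 10x libraries and the second set. Nr4a1 ranges from 144 to 578, and Jun in Young is at 19.4 by 10x and 97.7 by the second system.

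The 10 genes fell into unlike patterns when myonuclei were set against the other named classes. In the 10x libraries Egr1 was at 1.77 in Young, 3.61 in Old, 1.23 in Sedentary and 1.27 in Running in myonuclei and at 59.4 in Young, 37.1 in Old, 22.9 in Sedentary and 23.8 in Running in the other classes. Ier2 was at 1.29 in Young, 3.06 in Old, 0.728 in Sedentary and 2.37 in Running in myonuclei and at 12.6 in Young, 19.6 in Old, 9.97 in Sedentary and 12.3 in Running in the other classes. Both genes were higher in the other classes in every 10x library.

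The level in other classes, as a percentage of the myonuclear level in the 10x libraries Old, Young, Running and Sedentary, was 279, 411, 322 and 384% for Junb and 217, 222, 215 and 409.7% for Btg2. It was 156, 117, 168 and 119% for Fos and 93.2, 164, 81.0 and 91.2% for Jun. A set of 6 members, Fos, Fosb, Junb, Egr1, Btg2 and Ier2, were higher outside myonuclei in all 4 10x libraries, as were 60.4% of 19657 genes tested, and 3 of them, Egr1, Btg2 and Ier2, were higher there in all 8 libraries (14.5% of genes). Second-set values outside myonuclei rest on few UMIs, 4 to 7 per library for Egr1 and 3 to 10 for Ier2.

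Nr4a1 had the opposite order, with 415 in Young, 309 in Old, 231 in Sedentary and 342 in Running in 10x myonuclei and 67.0 in Young, 88.5 in Old, 77.1 in Sedentary and 101 in Running in the other classes. It was higher in myonuclei in all 8 libraries, as were 5.35% of genes, and Nr4a3 was so in the 4 10x libraries (15.5% of genes). Nr4a3 was at 8.82 in Young, 22.1 in Old, 8.79 in Sedentary and 6.095 in Running in 10x myonuclei and 4.27 in Young, 7.12 in Old, 4.31 in Sedentary and 4.36 in Running in the other classes. Free RNA from broken fibres can reach droplets of every type, and transcripts of fibre proteins give a measure of it.

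The 10x level of Nr4a1 outside myonuclei was 28.6, 16.1, 29.5 and 33.3% of the myonuclear level in Old, Young, Running and Sedentary, and in the second set it was 59.3, 79.4, 68.5 and 55.3%. The corresponding 10x values were 16.7, 12.5, 19.6 and 24.8% for Ttn, the giant titin protein, 23.6, 15.1, 28.2 and 33.7% for Myh4, the type IIb myosin, and 40.2, 26.6, 37.1 and 48.6% for Ckm, muscle creatine kinase. In the second set they were 50.2, 69.1, 63.7 and 52.4% for Ttn, 95.2, 146, 105 and 95.9% for Myh4 and 93.5, 169, 111 and 102% for Ckm. In all 8 libraries Nr4a1 lay inside the range of these 3 fibre genes, and how much of its level outside myonuclei is free RNA was not tested. The other members lay above all 3 fibre genes in every 10x library, except Nr4a3, which lay below Ckm in Old.

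Shares of nuclei gave the same picture once every nucleus was thinned to 500 UMIs. In the 10x libraries of Old, Young, Running and Sedentary, 14.1, 18.2, 16.1 and 11.1% of myonuclei and 4.09, 2.57, 4.13 and 4.27% of other nuclei held a UMI of Nr4a1. Without thinning the shares were 58.5, 63.2, 62.8 and 33.8% and 14.5, 11.3, 16.02 and 10.7%. For Egr1 the thinned shares were 0.160, 0.0659, 0.0725 and 0.0835% of myonuclei and 1.81, 2.57, 1.10 and 1.19% of other nuclei, so few nuclei held it at this depth in either compartment.

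Within myonuclei of the 10x set Nr4a1 differed by fibre type and library. In the 10x type IIb class it was at 417 in Young, 393 in Old, 335 in Sedentary and 357 in Running, a narrow range. In the type IIa/IIx class, fibres that carry Myh1 or Myh2, it was at 417 in Young, 102 in Old, 106 in Sedentary and 302 in Running. Young and Running were near their type IIb levels and Old and Sedentary well under theirs.

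In the second set the type IIa/IIx level was 109.8 in Young, 268 in Old, 265 in Sedentary and 791 in Running. Running exceeded Sedentary by a factor near 3 in both sets, with exact Poisson intervals, which cover counting error only, of 290.1 to 314 in Running and 97.9 to 114 in Sedentary replicate 1. Old against Young did not keep 1 direction, being lower in the 10x set and higher in the second. At the neuromuscular junction Nr4a1 was at 370.3 in Young, 340.2 in Old, 349.6 in Sedentary and 352 in Running and at the myotendinous junction at 303 in Young, 204 in Old, 195 in Sedentary and 318 in Running. Slow myonuclei held 64.6 in Old and 74.7 in Sedentary.

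**Figure D2:**
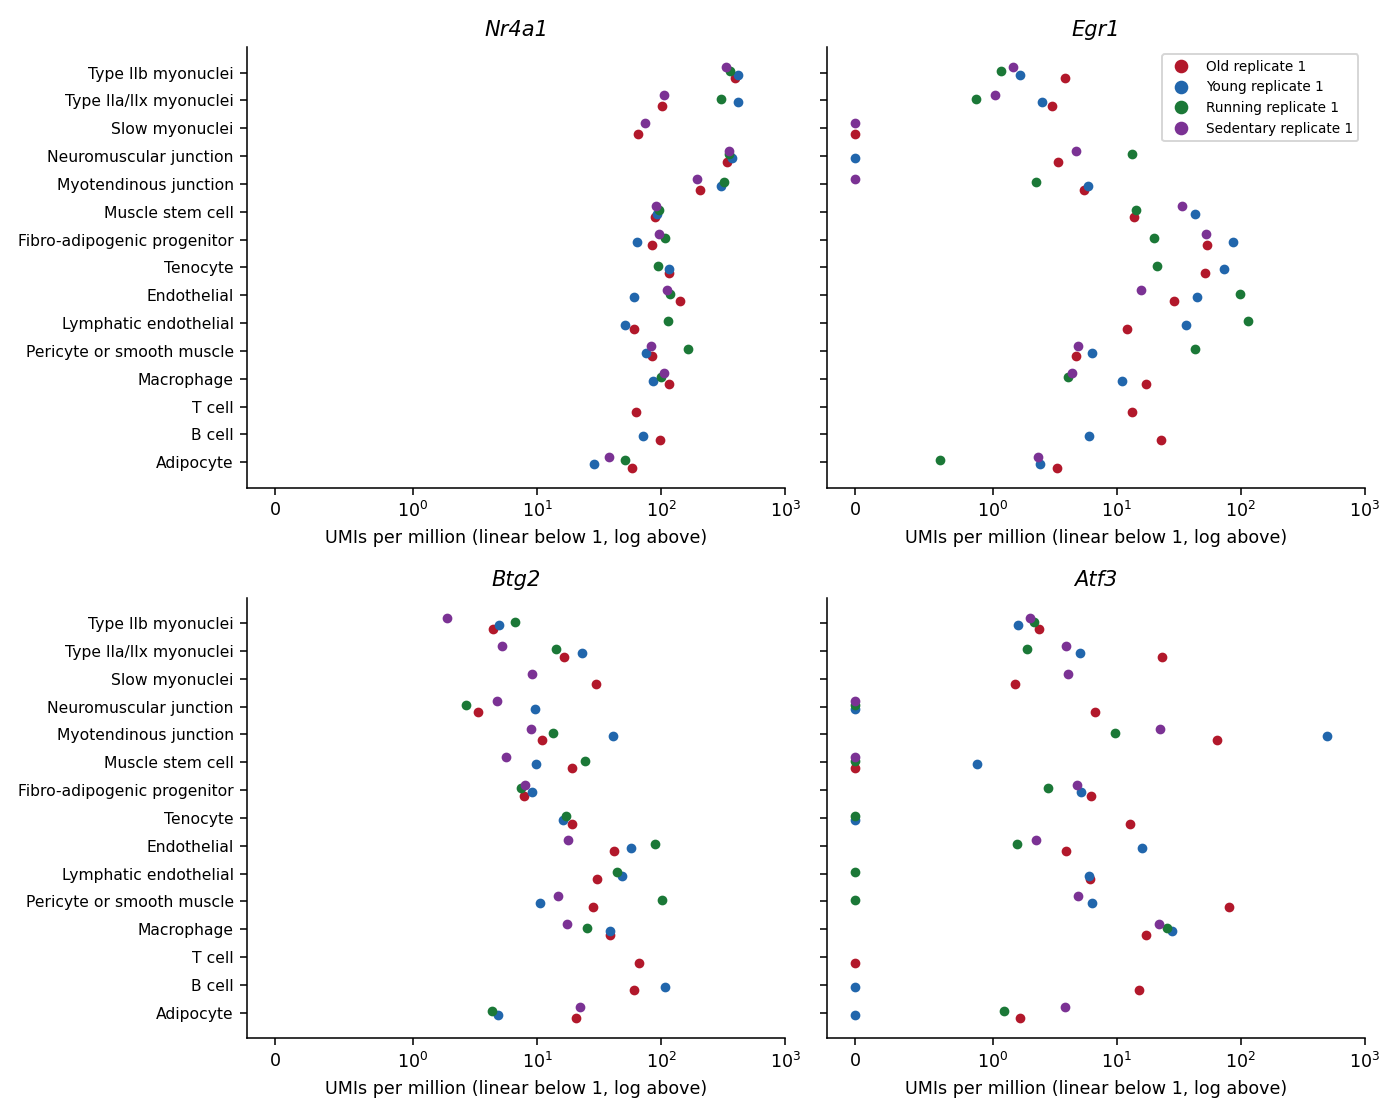
Level of Nr4a1, Egr1, Btg2 and Atf3 (CPM, linear below 1 and log above) by class of nucleus in the 10x libraries, for classes of at least 50 nuclei. Nr4a1 sits between 335 and 417 in type IIb myonuclei, Egr1 lies below 4 there and at 20.1 to 86.0 in fibro-adipogenic progenitors, and Atf3 reaches 492 at the myotendinous junction of Young.

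Because these clusters were made partly with myosin genes, 10x myonuclei were also grouped by the myosin that held at least 80% of at least 3 myosin UMIs, a grouping added after the levels by class had been seen. Nr4a1 was at 418 in Young, 376 in Old, 322 in Sedentary and 355 in Running in Myh4 nuclei and at 430.1 in Young, 97.9 in Old, 102 in Sedentary and 285 in Running in Myh1 nuclei. In Myh2 nuclei it was at 218 in Young, 46.4 in Old, 75.1 in Sedentary and 192 in Running, although Young had only 25 such nuclei. Myh7 nuclei, the slow type, held 49.0 in Old and 55.8 in Sedentary. The Myh4 level exceeded the Myh1 level by a factor over 3 in Old and Sedentary, while in Young the levels were alike and Running lay between.

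**Figure D3:**
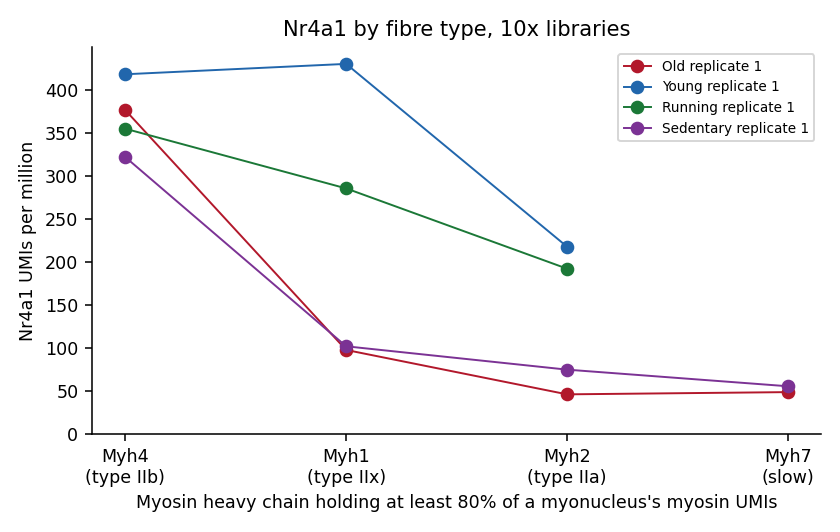
Nr4a1 level (CPM) in 10x myonuclei grouped by dominant myosin, for the 4 libraries. Myh1 nuclei of Old and Sedentary lie at 97.9 and 102, and those of Young and Running at 430.1 and 285.

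These differences were not called when type IIa/IIx myonuclei alone were tested over all 8 libraries, a fit added after the class levels had been seen (edgeR quasi-likelihood test with Benjamini-Hochberg adjustment). Running against Sedentary gave a log2 fold change of 1.55 ± 0.60 (SE; adjusted p = 1.0) for Nr4a1 and a log2 fold change of 1.98 ± 0.72 (SE; adjusted p = 1.0) for Btg2. Old against Young gave a log2 fold change of -0.99 ± 0.64 (SE; adjusted p = 1.0) for Nr4a1. In type IIb myonuclei alone, Running against Sedentary gave 0.29 ± 0.35 for Nr4a1, and Old against Young gave a log2 fold change of 1.77 ± 0.56 (SE; adjusted p = 0.241) for Nr4a3 and a log2 fold change of 1.29 ± 0.47 (SE; adjusted p = 0.427) for Jun. Old replicate 2 had only 38 type IIb nuclei. In these added fits Nr4a1 and Btg2 (Running against Sedentary) and Atf3 (Old against Young) in type IIa/IIx and Nr4a3 and Jun (Old against Young) in type IIb myonuclei had an unadjusted p under 0.05.

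Nr4a3, like Nr4a1, was lower in type IIa/IIx than in type IIb myonuclei of Old and Sedentary replicate 1. In 10x type IIb myonuclei it was at 8.12 in Young, 28.7 in Old, 14.1 in Sedentary and 6.23 in Running, and in type IIa/IIx myonuclei at 15.1 in Young, 4.54 in Old, 3.29 in Sedentary and 6.26 in Running. In second-set type IIa/IIx myonuclei it was at 3.36 in Young, 111 in Old, 75.4 in Sedentary and 43.9 in Running. Old was the highest in 10x type IIb and in second-set type IIa/IIx myonuclei, and Young in 10x type IIa/IIx myonuclei.

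Outside the fibres the growth-linked genes were unevenly spread. Egr1 was at 86.0 in Young, 53.0 in Old, 52.6 in Sedentary and 20.1 in Running in fibro-adipogenic progenitors, the connective tissue cells of muscle, and at 44.5 in Young, 29.0 in Old, 15.6 in Sedentary and 98.0 in Running in endothelial cells. Running had the highest endothelial and the lowest fibro-adipogenic value of the 4 10x libraries. In pericytes or smooth muscle it was at 6.34 in Young, 4.72 in Old, 4.90 in Sedentary and 42.8 in Running. These values rest on 3, 1, 1 and 14 UMIs. The exact Poisson intervals of Old and Sedentary, up to 26.3 and 27.3, overlap that of Running, from 23.4. In muscle stem cells Egr1 was at 42.5 in Young, 13.7 in Old, 33.8 in Sedentary and 14.4 in Running. Those values rest on 48, 10, 6 and 10 UMIs. Type IIb myonuclei held 1.65 in Young, 3.83 in Old, 1.47 in Sedentary and 1.16 in Running, and slow myonuclei held 0 UMIs in Old and Sedentary replicate 1, which allows up to 4.51 and 3.03 CPM (3 counts).

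Btg2 was at 56.9 in Young, 41.6 in Old, 17.8 in Sedentary and 88.6 in Running in endothelial cells and at 38.9 in Young, 38.8 in Old, 17.5 in Sedentary and 25.4 in Running in macrophages. In 10x type IIa/IIx myonuclei it was at 23.0 in Young, 16.4 in Old, 5.23 in Sedentary and 14.3 in Running, and in type IIb at 4.91 in Young, 4.45 in Old, 1.89 in Sedentary and 6.66 in Running, so Sedentary was the lowest in both fibre types. Ier2 was at 10.7 in Young, 37.7 in Old, 20.1 in Sedentary and 49.0 in Running in endothelial cells and at 1.18 in Young, 2.84 in Old, 0.735 in Sedentary and 2.15 in Running in type IIb myonuclei. Running was again the highest endothelial library of the 10x set for both genes. For Ier2 its exact Poisson interval, 33.3 to 69.6, overlapped that of Old, 26.8 to 51.6. In second-set endothelial cells Ier2 was the lowest in Running, at 14.3 from 1 UMI. It was at 32.6 in Young, 36.0 in Old and 32.7 in Sedentary there.

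Junb was at 23.9 in Young, 31.7 in Old, 35.1 in Sedentary and 15.2 in Running in fibro-adipogenic progenitors and at 4.19 in Young, 8.03 in Old, 4.73 in Sedentary and 4.86 in Running in type IIb myonuclei. Jun was spread more evenly, at 32.2 in Young, 58.0 in Old, 23.1 in Sedentary and 36.6 in Running in fibro-adipogenic progenitors and 14.6 in Young, 56.3 in Old, 23.4 in Sedentary and 44.1 in Running in type IIb myonuclei, with Old the highest and Running next in both classes. Fos was at 20.7 in Young, 10.1 in Old, 26.3 in Sedentary and 50.9 in Running in macrophages. Fosb was at 8.72 in Young, 2.08 in Old, 7.17 in Sedentary and 5.11 in Running in fibro-adipogenic progenitors, which held 59 of its 82 UMIs in Young replicate 1.

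In Old and Young replicate 1 the Atf3 counts rested on few nuclei. The 10 nuclei with most Atf3 UMIs held 53.4% of its UMIs in Old replicate 1 and 58.2% in Young replicate 1. In Old replicate 1 a single type IIa/IIx nucleus of 7638 UMIs held 83 of the 354 Atf3 UMIs. Without the nucleus that held most, the library level of Atf3 was 6.93 CPM in Old and 5.98 in Young replicate 1, and without that of Old alone it lay below the full Young value. In Running and Sedentary replicate 1 the counts were more spread, at 123 UMIs over 98 nuclei and 104 UMIs over 92 nuclei. At the myotendinous junction, where fibres meet tendon, Atf3 was at 492 in Young, 64.0 in Old, 22.4 in Sedentary and 9.76 in Running, and 8 nuclei of that class held 156 of the 299 Atf3 UMIs of Young replicate 1. Nuclei with at least 5 Atf3 UMIs numbered 9 in Old and 11 in Young replicate 1, and they held Fos at 16.7 and 530.2 CPM. Ankrd1, a stretch-responsive cofactor, was at 1236 and 3504 CPM in them. It is also a marker by which the myotendinous junction class was named. Of these nuclei, 4 in Old and 8 in Young were of that class, so its level there partly follows from the naming. The 4 nuclei with at least 5 Atf3 UMIs in the other libraries held 0 Fos UMIs.

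The Old and Young libraries were compared to ask how age goes with each gene. In 1 fit of all 8 libraries with the set as a term (edgeR quasi-likelihood test, Benjamini-Hochberg adjustment over all genes), none of the 10 members was called, nor was any of 20325 genes tested (0.0%), although 557 genes had an unadjusted p under 0.05, and DESeq2 called 0. No member had an unadjusted p under 0.05 in these whole-library, compartment and interaction comparisons, 8 in all. Old exceeded Young in both sets for Junb, Nr4a3, Atf3, Btg2 and Ier2, 5 of 10, as did 51.2% of all genes, and Nr4a1 was lower in both, as were 10.5%. For Atf3 in the 10x set this did not hold when the 1 nucleus of Old described above was left out alone. With the nucleus of most Atf3 UMIs left out of both libraries, Old was at 6.93 and Young at 5.98. The median log2 fold change over all genes was 0.19. In sums over a library, fewer nuclei of a type and less RNA per nucleus cannot be told apart. Nr4a3 had a log2 fold change of 1.23 ± 0.71 (SE; 95% interval -0.42 to 2.89) and Junb one of 0.79 ± 0.56, while Btg2, higher in both sets before TMM scaling, was at -0.10 ± 0.54 after it. Nr4a1 had a log2 fold change of -0.70 ± 0.63 (SE; 95% interval -2.16 to 0.76). Without Young replicate 1 the Nr4a1 value was 0.15, and without Old replicate 2, in which most nuclei were unnamed, -0.15.

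In myonuclei Nr4a3 was at 22.1 and 45.7 in Old and 8.82 and 5.57 in Young. Its log2 fold change of 1.64 ± 0.72 (SE; 95% interval -0.03 to 3.31) was the widest of the 10 (edgeR adjusted p = 0.972), and it was 0.71 without Young replicate 2 and 3.36 without Young replicate 1. Junb was at 9.73 and 7.48 in Old and 4.65 and 3.29 in Young (log2 fold change of 0.91 ± 0.49). Jun was at 58.3 and 114 in Old and 16.2 and 94.4 in Young, with the Young libraries on both sides of Old replicate 1, and with a log2 fold change of 0.73 ± 0.45.

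Myonuclear levels of 7 members (Jun, Junb, Egr1, Nr4a3, Atf3, Btg2 and Ier2) were higher in Old in both sets, as were 39.8% of 18815 genes. For Atf3 in the 10x set this is with the 1 nucleus named above. Fosb was lower in both, 1 member against 14.3% of genes. In second-set myonuclei Egr1 was at 1.66 in Old and 1.26 in Young, and Fosb at 0 and 0.126. Myonuclei of all 4 second-set libraries together held 47 UMIs of Egr1, 42 of Ier2 and 9 of Fosb, so these directions rest on few UMIs. Old replicate 2 had only 1088 myonuclei. Nr4a1 was at 309 and 198 in Old and 415 and 162 in Young, so the groups overlapped and the sets differed in direction. No member was called (0.0% of genes called, 566 at an unadjusted p under 0.05, and 4 genes but no member by DESeq2).

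In the other classes Nr4a3 was at 7.12 and 33.5 in Old and 4.27 and 11.3 in Young and Jun at 54.4 and 145 in Old and 26.6 and 138 in Young. Jun, Junb and Nr4a3 were higher in Old in both sets, 3 members against 31.8% of 15142 genes, and Egr1 was lower in both, 1 member against 19.1%. Egr1 was at 37.1 and 11.2 in Old and 59.4 and 15.8 in Young, with a log2 fold change of -0.65 ± 0.55 (SE; 95% interval -1.85 to 0.56). No member was called there either (0.0% of genes, 393 at an unadjusted p under 0.05, 1 gene by DESeq2).

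**Figure D4:**
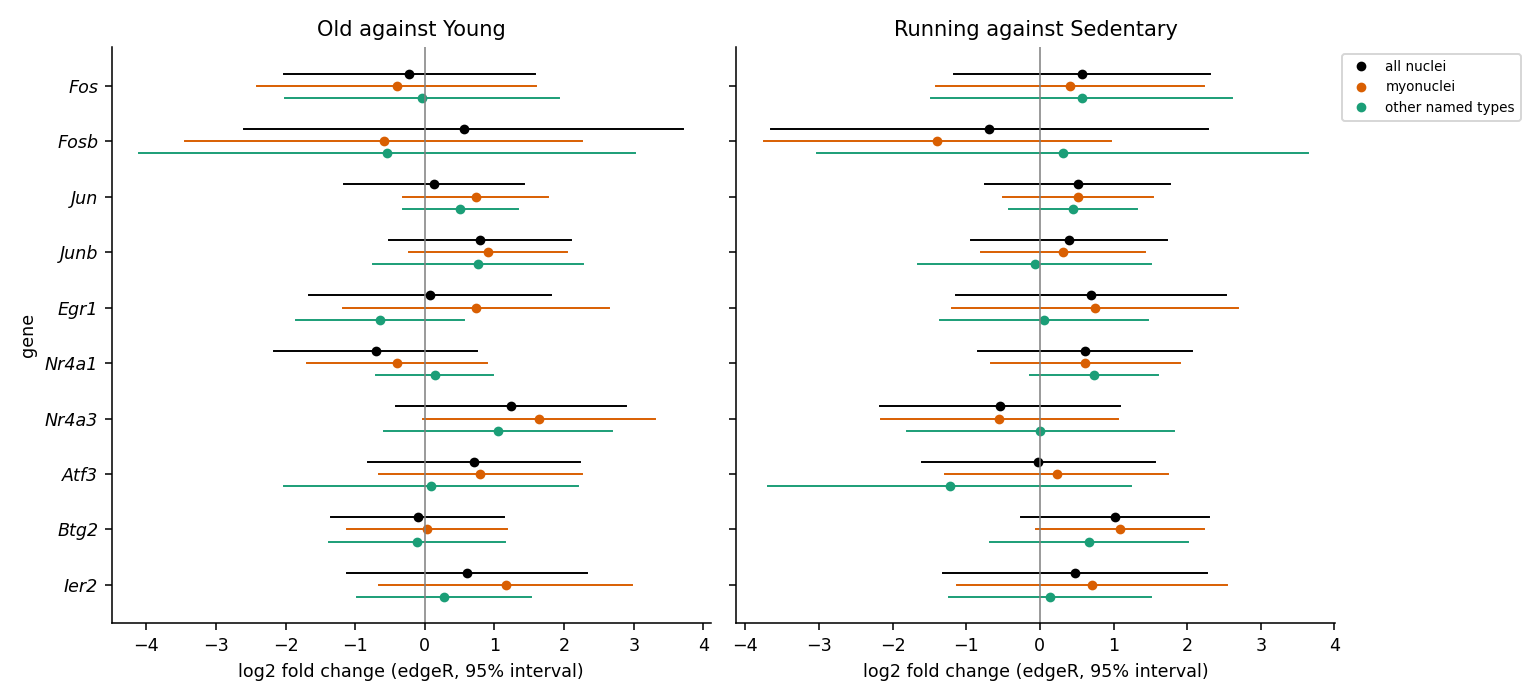
Fitted log2 fold change of each of the 10 genes, Old against Young and Running against Sedentary, in whole libraries, myonuclei and the other classes, with 95% intervals. Every interval includes 0.

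The trained and untrained mice were compared to ask how running goes with these genes. No member and no gene was called in whole libraries (0.0% of 20325, with 98 at an unadjusted p under 0.05 and 0 by DESeq2). Jun, Egr1, Nr4a1, Btg2 and Ier2 were higher in Running in both sets, 5 of 10 against 26.2% of genes, and Fosb and Nr4a3 were lower in both, 2 against 25.7%. The directions are those of CPM without mitochondrial and ribosomal genes, at 3.22 in both second-set libraries for Ier2, and on the totals used for the levels above Ier2 was not higher in Running there (3.14 against 3.15). The median over all genes was -0.04. Btg2 had a log2 fold change of 1.02 ± 0.55 (SE; 95% interval -0.26 to 2.29) and Nr4a1 one of 0.61 ± 0.63.

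In myonuclei Btg2 was at 8.76 and 12.3 in Running and 3.75 and 6.35 in Sedentary, and Running exceeded Sedentary within each set. Its log2 fold change of 1.09 ± 0.49 (SE; 95% interval -0.06 to 2.23) was the widest positive value of the 10 (edgeR adjusted p = 1.0), and it was 0.65 without Sedentary replicate 1 and 1.57 without Sedentary replicate 2. Nr4a1 was at 342 and 590.3 in Running and 231 and 374 in Sedentary, with Sedentary replicate 2 above Running replicate 1.

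Nr4a1 had a log2 fold change of 0.62 ± 0.56 (SE; 95% interval -0.67 to 1.91), which was -0.19 without Running replicate 2, 0.11 without Sedentary replicate 1 and 1.43 without Sedentary replicate 2. Jun, Egr1, Nr4a1 and Btg2 were higher in both sets, 4 members against 25.3% of 18815 genes, and Fosb and Nr4a3 lower, 2 against 26.4%. Nr4a3 was at 6.095 and 27.5 in Running and 8.79 and 40.1 in Sedentary. No member was called (0.0% of genes, 204 at an unadjusted p under 0.05, 0 by DESeq2).

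In the other classes Nr4a1 was at 101 and 404 in Running and 77.1 and 207 in Sedentary, with a log2 fold change of 0.73 ± 0.40 (SE; 95% interval -0.13 to 1.60), beside fibre transcripts at the levels given above, whose part in it was not tested. Btg2 was at 18.8 and 31.1 in Running and 15.4 and 6.67 in Sedentary, and the last of these rests on 1 UMI. Fos, Jun, Nr4a1, Nr4a3 and Btg2 were higher in both sets, 5 members against 28.8% of 15142 genes, and Atf3 was lower in both, 1 against 18.5%. Nr4a3 was nearly level, at 4.36 and 13.8 in Running and 4.31 and 13.3 in Sedentary. Fos was at 0 in Sedentary replicate 2. The other classes of all 4 second-set libraries together held 22 UMIs of Fos, 23 of Nr4a3 and 7 of Atf3. The second-set directions of these 3 genes therefore rest on few UMIs. No member was called (0.0% of genes, 316 at an unadjusted p under 0.05, 2 genes by DESeq2).

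Whether a difference was larger in myonuclei than in the other classes was tested as an interaction over 16 sums, the 2 compartments of each library, with the library as a block. None of 19657 genes was called in either comparison (0.0%), with 137 genes at an unadjusted p under 0.05 for age and 77 for running, and DESeq2 called 0 in both. For Old against Young the myonuclear log2 fold change minus that in other classes was 1.13 ± 0.82 for Egr1, 0.66 ± 0.92 for Nr4a3 and -0.37 ± 0.92 for Nr4a1. For Running against Sedentary it was 0.20 ± 0.86 for Btg2 and -0.18 ± 0.88 for Nr4a1, with a 95% interval of -2.16 to 1.81. The interval is wide, so a difference held to the fibres and one shared by all classes were not separated for Nr4a1.

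Genes around the 10 members were counted from 4 lists, and no listed gene was called in any comparison. Of 34 tested related early genes, 22 were higher in Old and 20 in Running, with median log2 fold changes of 0.14 and 0.19 against 0.19 and -0.04 over all genes. Gadd45g, a stress and growth-arrest gene, stood at 1.67 ± 0.79 for Running against Sedentary. Of 26 upstream regulators, 3 were higher in Old (median -0.45) and 9 in Running (-0.08). Mef2c, a muscle transcription factor, was at -1.37 ± 0.52 for Old against Young.

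Of 13 heat shock genes, listed as a possible sign of handling stress, 2 were higher in Old (median -0.42) and 11 in Running (0.18). Whether they follow handling was not tested. Hspa8, a constitutive chaperone, was at -0.92 ± 0.58 by age (Old against Young) and 0.70 ± 0.58 by running. Outside myonuclei 0 of 11 were higher in Old and 9 of 11 in Running, with medians of -0.38 and 0.38 against 0.05 and 0.02 over all genes there, and in myonuclei 7 and 8 of 13 were, with medians of 0.03 and 0.11 against 0.07 and -0.05. Their part in the member values was not tested. Of 16 contraction-response genes, 4 were higher in Old (median -0.43) and 11 in Running (0.15) in whole libraries. In myonuclei 8 were higher in Old and 11 in Running, with medians of -0.05 and 0.17 against 0.07 and -0.05 over all genes. Outside myonuclei 11 of 15 were higher in Old and 10 in Running, with medians of 0.28 and 0.14 against 0.05 and 0.02. Pdk4, which spares glucose in muscle, was at 0.82 ± 0.73 for Running against Sedentary in whole libraries. The same list holds Mstn and Txnip. Its counts and medians take no account of the direction expected of each gene, so they do not score a contraction response.

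Likeness was measured as Pearson's r over 51 class-by-library sums of the 10x set, each value centred on its library, so that points share libraries and depth. The genes most like the 10 members summed were 1700025G04Rik (r = 0.780), Yipf5 (0.761), Pvalb (0.761), Prr33 (0.747) and Synm (0.743), and Nr4a1 itself had 0.810 with the sum. Leaving Nr4a1 out of the sum gave Plek (0.683), Rftn1 (0.630), Myh9 (0.626), Cnrip1 (0.615) and Sik1 (0.614). Among members, Junb and Ier2 had 0.603, Egr1 and Ier2 0.564, Egr1 and Junb 0.561, and Nr4a1 and Nr4a3 0.401. Nr4a1 had -0.289 with Egr1 and -0.383 with Ier2. Without Nr4a1 the summed members had -0.011 with Pvalb, a gene of fast fibres.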

How the data were processed

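Per the labels, the authors deposited 1 filtered matrix of raw UMI counts for each of the 8 libraries. Replicate 1 libraries were counted with Cell Ranger 6.1.2 and replicate 2 libraries with PISA 0.12, both on mm10, and the study's own analysis used Seurat 4.1.1. The study's filters were kept (over 200 genes, below 6000 genes, mitochondrial share below 6%). Doublets stayed in, and in an alternative the top 6% by doublet score were dropped. Clustering was run within each library set, without the members and related early genes (scanpy 1.11.5, leidenalg 0.10.2, 2000 variable genes, 30 components, 20 neighbours, resolution 1.0). Clusters were named from marker lists, and those with fewer than 3 detected markers or mixed markers stayed unnamed.

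Levels are CPM over 21207 common symbols. Since nuclei cannot serve as replicates, sums per library and compartment were used. Without 12 mitochondrial and 82 ribosomal protein genes, these entered the quasi-likelihood F-test of edgeR 4.0.16 (R 4.3.3), with group and library set as terms. The scaling was TMM, genes were filtered by filterByExpr, and p-values were adjusted by Benjamini-Hochberg over all genes at a threshold of 0.05. The library set, which each group spans with 1 library, was the block, as the labels give it. Replicate numbers otherwise pair no libraries. The test was also run on simulated counts with the same spread for every gene and no difference between library sets. Those counts are simpler than the data, so that run does not show how the test behaves on the data. The study tested single nuclei as replicates, which was not done here. The alternatives were other scaling (RLE), no filter, DESeq2 1.42.0, no library set term, only the 4 libraries compared, each library left out in turn, a gene length trend removed, thinning, named nuclei only, no top doublet scores and a resolution of 0.5. Fits of single fibre types were added after the data had been seen. Members and lists were chosen with earlier results of these data known. All 10 members were named in every comparison, and list genes by size of change among those whose mean log2 CPM reached 4 and with 1 direction in both sets, up to 3 per list, of which some are printed.

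Total counts ran from 4765224 to 44389777 UMIs per library, and intervals and limits cover counting error only. Coordinates are from GENCODE vM21 on GRCm38, and promoter windows from RefSeq on GRCm38.p6.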

Additional observations from a re-analysis of the deposited data

How the results depend on the processing

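No member was called under any of 132 alternatives. Of 1285 member fold changes, 113 changed sign, 76 of them with a library left out, and none of these was called. The smallest adjusted p of a member was 0.0509, for Nr4a3 in myonuclei of Old against Young with only the 4 libraries compared (log2 fold change of 1.90). Without the replicate block (the library set term) 0 genes and 0 members were called in every comparison. Counts of all genes called moved from 0 as follows, and their causes were not tested. In whole libraries Old against Young gave 4 genes with only the 4 libraries and 3 with the length trend removed, and Running against Sedentary gave 82 and 8. In myonuclei Old against Young gave 4 by DESeq2, 69 with only the 4 libraries, 1 with the length trend removed, 1 in type IIa/IIx nuclei alone and 49 in type IIb alone, and Running against Sedentary gave 2 with only the 4 libraries and 7 in type IIb alone. In the other classes Old against Young gave 53 without a filter, 1 by DESeq2, 11 with only the 4 libraries and 11 with the length trend removed, and Running against Sedentary gave 39, 2, 156 and 19 in the same order and 6 at the resolution of 0.5. Leaving out a library gave 0 to 8 genes for Old against Young and 0 to 427 for Running against Sedentary in whole libraries (8 without Sedentary replicate 1 and 4 without Sedentary replicate 2 in the first, 427 without Sedentary replicate 2 in the second). In the other classes it gave 0 to 98 (98 without Old replicate 1) and 0 to 300 (300 without Sedentary replicate 2). Levels by class without top doublet scores stayed within their counting intervals in 741 cases and left them in 39. Shares of nuclei at 1000 UMIs were higher than at 500 in 139 of 160 cases. Depth limits Fosb most, with 1 to 82 UMIs per library, every non-fibre value of the second set, and Egr1 and Ier2 in its myonuclei.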

Other observations

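In the second set, 1 cluster of 997 nuclei was led by Vegfa, the endothelial growth factor, Coq10b, Abra, an actin-binding activator of serum response factor, Slc38a3, Ank2, Nr4a3, Nr4a1 and Ucp3, an uncoupling protein of muscle mitochondria. It held 19 nuclei of Old, 99 of Young, 375 of Running and 504 of Sedentary. Clusters were made without the 10 members, but Nr4a1 and Nr4a3 were among its leading genes. Nr4a1 in it was at 233 CPM in Young, 858 in Running and 453 in Sedentary. Nr4a3 was at 6.13 in Young, from 1 UMI, at 60.7 in Running and at 82.4 in Sedentary. The cluster was chosen after its values were seen, and no test was made of it.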
